A study of Homo sapiens with 4 samples.

Results

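The 37 genes described here are transcription factors, RNA-binding proteins and markers that regulate or mark human pluripotency, in its primed and its naive form. They were listed by name, without use of their measured values in the list itself, but with earlier results of these data known. Their rows were found by gene symbol among the 60483 gene identifiers counted in each library. All 37 were found, and all 37 had enough reads to be tested. The RNA came from H9 (WA09), an established line of human embryonic stem cells, in 2 groups of 2 libraries each: control cells, and cells whose genotype is given as SLC35F2 KO (KO below). SLC35F2 encodes a solute carrier of the plasma membrane. How the knockout was made, whether the KO libraries stem from 1 clone or several, and what the control cells carry are not stated in the labels used here, nor is it said whether each library is a culture of its own, so the tests measure the spread between these libraries, which may be technical.

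Pluripotency is the ability of a cell to form all tissues of the embryo. In human stem cells it is held by the factors encoded by POU5F1 (OCT4), SOX2 and NANOG, which bind together at their own genes and at many others, and by RNA-binding proteins such as LIN28A that act on messages and on microRNA precursors. H9 cells in standard culture are in the primed state, which resembles the epiblast after implantation. The naive state resembles the epiblast before implantation and is marked by factors such as KLF4, TFCP2L1 and TFAP2C and by the surface protein SUSD2.

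Assigned reads ranged from 27824693 to 37978705 per library. The targeted gene SLC35F2 had 1550 and 964 reads in the controls and 332 and 330 reads in KO, a log2 fold change of -1.65 with an adjusted p of 0.58 in edgeR's test across all genes. The libraries thus lay on the sides their labels give, with SLC35F2 RNA present in both KO libraries. KO 2 had the highest share of mitochondrially encoded reads (8.97%, against 5.15% to 7.38% in the others) and the lowest share of reads outside annotated genes (4.59%, against 7.41% to 10.8%). Over genes averaging 1 CPM or more (CPM is the read count scaled to the library total), the KO libraries differed with an SD of 0.814 on the log2 scale, and the controls with an SD of 0.502. POU5F1, SOX2, LIN28A and DPPA4 were abundant in all 4 libraries, as the labelled cell type has it.

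None of the 37 regulators reached an adjusted p under 0.05 by the edgeR quasi-likelihood test, which called 0.0263% of the 19027 genes tested. At an unadjusted p under 0.05 edgeR placed 3 of them, NANOG, PRDM14 and DPPA5, each lower in KO. That is 8.11% of the members, beside 4.06% of all genes in either direction, made up of 3.0% lower and 1.06% higher in KO. With a replicate block, although the labels do not pair the libraries, 10 members were at such a p, all lower, beside 5.43% of all genes in that direction. DESeq2, which called 0.315% of all genes, and limma-voom called none of the 37 after adjustment either, and had 3 and 5 of them at an unadjusted p under 0.05. The shares of all genes at such a p were 3.84% with DESeq2 and 3.64% with limma-voom. In levels, 9 members (24.3%) had both KO libraries below both controls, beside 16.3% of all genes tested. Those were NANOG, PRDM14, UTF1, L1TD1, DPPA2, DPPA5, SUSD2, NLRP7 and TERT. NLRP7 and DPPA5 were kept by the filter on read counts through the controls, so that filter favours a lower level in KO for them. With a mean of at least 1 CPM as the filter, both drop out. Then 7 of 35 members were lower in both KO libraries, beside 15.3% of all genes. At an unadjusted p under 0.05 edgeR then placed 2, beside 3.47% of all genes. SALL2, ZIC2 and LIN28A were higher in both KO libraries, 8.11% of the members beside 15.8% of all genes. The remaining 25 overlapped between the groups. The fold change was below 0 for 22 members and above 0 for 15, and below 0 for 47.2% of all genes. The median log2 fold change of the members was -0.195, and that of all genes was 0.029. A 95% confidence interval that stayed within 2-fold in either direction was reached for 14 members, among them POU5F1, SOX2, SALL4, LIN28A, DPPA4 and PODXL. For the other 23 the interval reached beyond 2-fold, so it includes changes of that size; for 20 of these it also included 0, and for NANOG, PRDM14 and DPPA5 it did not.

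**Figure D1:**
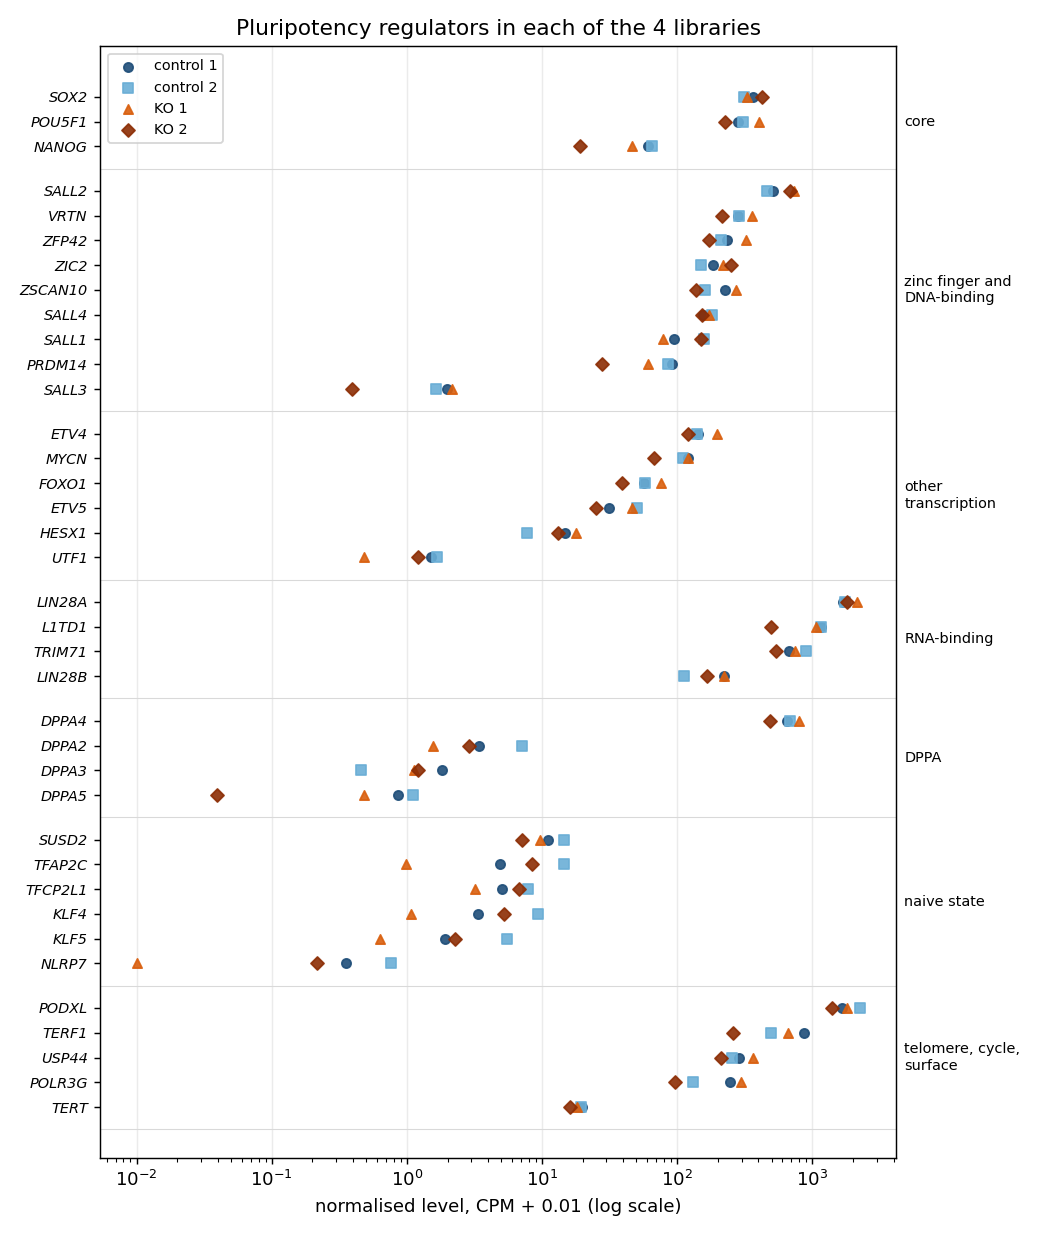
Normalised level of each regulator in each library, in CPM + 0.01 on a log axis, grouped by role; circles and squares are control 1 and control 2, triangles and diamonds are KO 1 and KO 2. NANOG and PRDM14 stand lower in both KO libraries, with KO 2 lowest, while the naive-state genes TFAP2C, KLF4 and KLF5 stand lowest in KO 1 and highest in control 2.

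**Figure D2:**
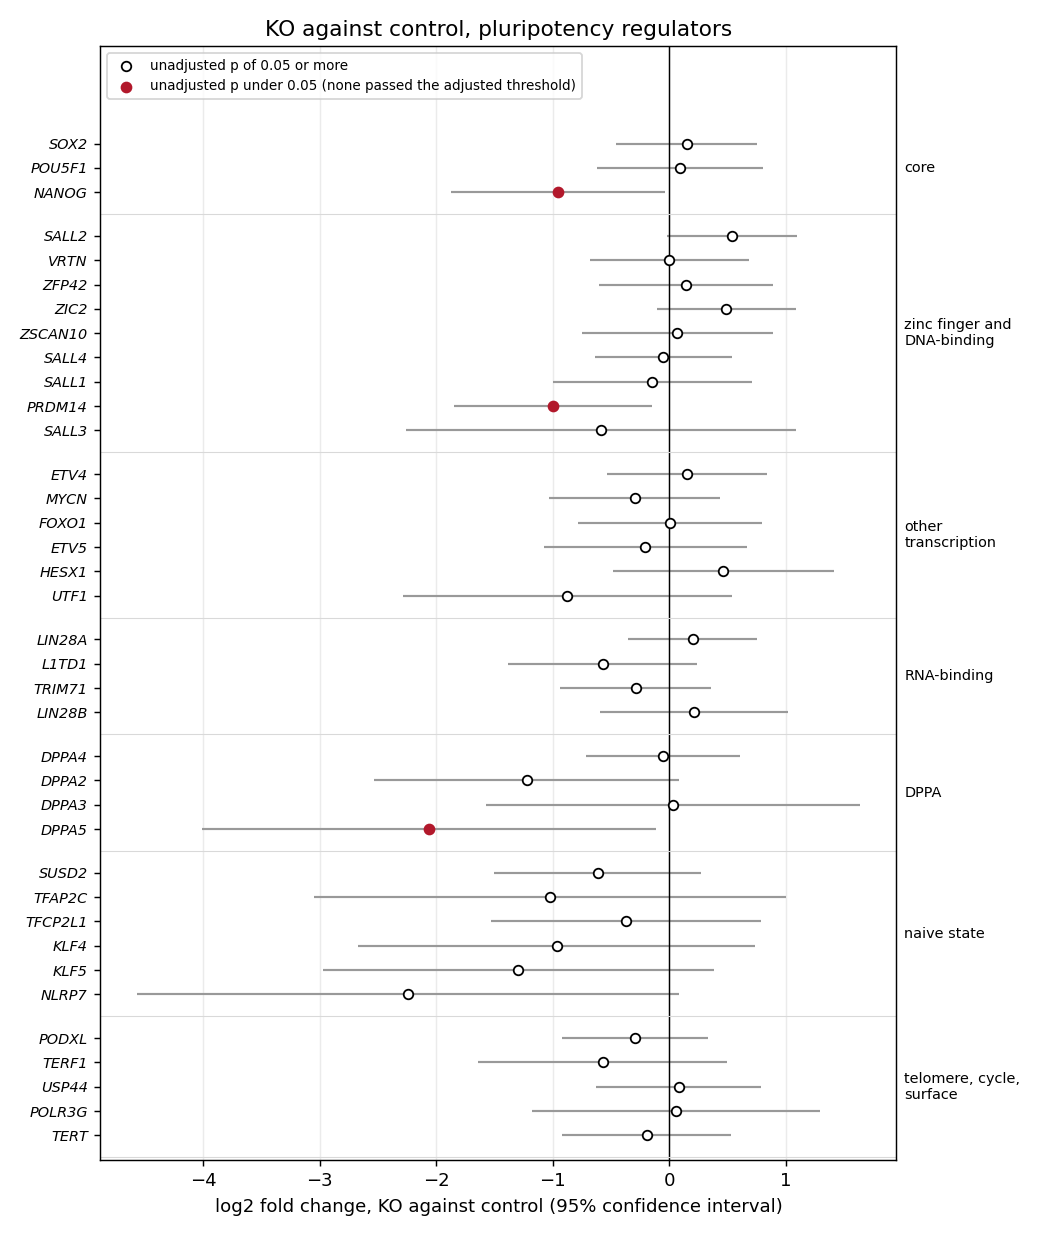
Log2 fold change of KO against control for each regulator with its 95% confidence interval, from edgeR's fit across all genes. The intervals of NANOG, PRDM14 and DPPA5 (filled points) lie below 0, those of the other 34 genes include 0, and no gene passed the adjusted threshold.

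The core factors differed in their order across the 4 libraries, and NANOG was the only one of them lower in both KO libraries. POU5F1 (chromosome 6, minus strand), the POU-domain factor OCT4, had 282 and 306 CPM in the controls, with KO 1 at 401 CPM and KO 2 at 227 CPM. The KO libraries thus lay on either side of both controls. SOX2 (chromosome 3, plus strand), the HMG-box partner of OCT4, had 365 and 314 CPM in the controls, compared to 327 and 427 CPM in KO, also with overlap. NANOG (chromosome 12, plus strand, 7787794 to 7799141 on GRCh38), the homeodomain factor that steadies the network, had 61.2 and 64.7 CPM in the controls, compared to 46.2 and 19.1 CPM in KO. Both KO libraries were below both controls, and KO 2 was 2.42-fold below KO 1.

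For NANOG the group means were 63.0 ± 2.47 CPM in the controls and 32.7 ± 19.2 CPM in the KO libraries (SD, n = 2 each), which edgeR put at -0.95 ± 0.40 (SE) on the log2 scale, between -1.87 and -0.03 with 95% confidence. Its adjusted p in edgeR was 0.997. The size depended on the KO library kept. Without KO 1 the log2 fold change was -1.71 (edgeR adjusted p = 0.000946), and without KO 2 it was -0.44 (adjusted p = 1). Both fits take the spread of the controls for the single KO library. Leaving out KO 1, edgeR called 2.96% of all genes as lower.

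NANOG has pseudogenes close enough in sequence that reads can be lost from one or the other. Reads aligned to several places stand in a row of their own in the deposited counts and belong to no gene. NANOGP1, a duplicate beside NANOG on chromosome 12, had 177 and 282 reads in the controls and 62 and 101 in KO, and the retrocopy NANOGP8 on chromosome 15 had 200 and 265 against 124 and 92. The 11 annotated NANOG pseudogenes together held between 14.9% and 29.7% as many reads as NANOG itself. Summed with them, the NANOG family stood at 71.2 and 80.2 CPM in the controls and at 53.1 and 24.8 CPM in the KO libraries, in the same order as NANOG alone. POU5F1 has 6 such pseudogenes, and these held at most 1.99% as many reads as POU5F1. Over all members 44 pseudogenes are annotated for 12 genes.

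The promoters of NANOG and SOX2 are shown because both genes are known targets of OCT4, and an octamer-like word can be read in each window. OCT4 binds octamer-like words and SOX2 binds a short HMG-box word, and when the pair lie side by side both proteins bind as one unit. Each window, from RefSeq on GRCh38.p14, spans 300 bases around the start site that RefSeq's table uses and is printed 5′ to 3′ on the gene's strand, with the octamer core TTTGCAT and the SOX core ACAATG, on either strand, in capitals.
NANOG promoter (chr12:7789152-7789451, plus strand): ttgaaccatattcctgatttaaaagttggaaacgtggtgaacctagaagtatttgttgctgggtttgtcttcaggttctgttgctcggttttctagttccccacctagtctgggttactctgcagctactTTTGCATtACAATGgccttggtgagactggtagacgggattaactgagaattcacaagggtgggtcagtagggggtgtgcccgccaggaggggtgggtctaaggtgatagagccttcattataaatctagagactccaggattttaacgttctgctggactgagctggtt
SOX2 promoter (chr3:181711675-181711974, plus strand): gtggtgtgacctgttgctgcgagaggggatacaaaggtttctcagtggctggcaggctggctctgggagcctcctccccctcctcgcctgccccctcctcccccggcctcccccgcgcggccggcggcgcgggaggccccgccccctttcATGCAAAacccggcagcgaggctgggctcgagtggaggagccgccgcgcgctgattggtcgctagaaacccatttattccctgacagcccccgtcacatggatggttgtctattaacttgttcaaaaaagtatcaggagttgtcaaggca

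For NANOG that start lies downstream of the gene start given above, which is the first base of its earliest-starting GENCODE transcript. In the NANOG window both words stand together, the octamer core beginning 120 bases and the SOX core 112 bases before the RefSeq start, with 1 base between them. The joined word TTTGCATNACAATG was found in 3 of the 27305 promoter windows searched (0.011%), and NANOG was the only one of the 24 members with a window to hold it. The octamer core alone was in 4.51% of all windows and in 3 member windows, those of NANOG, SOX2 and DPPA3. In SOX2 it reads on the opposite strand, from 100 bases before the start. The SOX core alone was in 11.0% of all windows and in 4 member windows, those of NANOG, SALL2, LIN28B and KLF5. Windows were found for 24 of the 37 members. A match describes the letters in a window and is no measure of binding.

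Among the zinc finger and other DNA-binding factors PRDM14 was the only one of 9 lower in both KO libraries. PRDM14 (chromosome 8), a PR-domain factor that supports pluripotency by holding back differentiation genes, had 91.3 and 86.2 CPM in the controls, compared to 61.0 and 27.9 CPM in KO. As for NANOG, both KO libraries were below both controls and KO 2 was the lower, by 2.19-fold. Its log2 fold change was -1.0002 ± 0.37 (SE), with an interval from -1.85 to -0.15 and an edgeR adjusted p of 0.997. Without KO 1 it was -1.66 (adjusted p = 0.00119), and without KO 2 it was -0.54 (adjusted p = 0.958).

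The SALL genes encode spalt-like zinc finger proteins, of which SALL4 is the one best known in stem cells. SALL4 had 155 and 182 CPM in the controls, compared to 172 and 152 CPM in KO, a log2 fold change of -0.05 with an interval from -0.64 to 0.54. SALL2 had 514 and 465 CPM in the controls, compared to 736 and 684 CPM in KO, so both KO libraries were above both controls. Its log2 fold change was 0.54 ± 0.25 (SE), with an interval from -0.02 to 1.09 and no call. In SALL1 replicate 2 was the higher library of each group, with 94.7 and 158 CPM in the controls, compared to 78.7 and 149 CPM in KO. SALL3 was rare, with 75 and 58 reads in the controls and 59 and 13 reads in KO. Per kilobase of exon SALL2 had the highest level of the family, between 2.74 and 4.81 times the level of SALL4 over the 4 libraries, and SALL4 stood between 1 and 2.14 times the level of SALL1.

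ZIC2, a zinc finger factor of the primed state, was the other DNA-binding factor higher in both KO libraries, with 184 and 149 CPM in the controls, compared to 219 and 248 CPM in KO. On the log2 scale the fold change was 0.49, with an interval from -0.11 to 1.09. ZFP42 (REX1), a classic stem cell marker, had 235 and 212 CPM in the controls, with KO 1 at 322 CPM and KO 2 at 172 CPM. ZSCAN10, a SCAN-domain zinc finger factor, had 228 and 162 CPM in the controls, with KO 1 at 272 CPM and KO 2 at 137 CPM. VRTN (vertnin) had 285 and 288 CPM in the controls, with KO 1 at 357 CPM and KO 2 at 216 CPM. In these 3 genes KO 1 was the highest library and KO 2 the lowest, so the group means nearly cancel, with log2 fold changes of 0.14, 0.07 and 0.00.

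The same order was seen in several of the other transcription regulators. ETV4, an ETS factor that responds to FGF signalling, had 143 and 140 CPM in the controls, with KO 1 at 196 CPM and KO 2 at 120 CPM. FOXO1, a forkhead factor restrained by insulin signalling, had 56.9 and 57.5 CPM in the controls, with KO 1 at 76.0 CPM and KO 2 at 38.8 CPM. MYCN, the MYC family member of stem cells, had 121 and 111 CPM in the controls and 121 CPM in KO 1, against 67.5 CPM in KO 2. KO 2 was thus the lowest library for all 3. ETV5, a relative of ETV4, had 31.2 and 50.7 CPM in the controls, compared to 46.2 and 24.9 CPM in KO. HESX1, a homeobox gene of the early epiblast and forebrain, had 14.7 and 7.80 CPM in the controls, compared to 17.9 and 13.2 CPM in KO, and its lowest library was control 2. UTF1, a chromatin-associated stem cell marker, had 57 and 59 reads in the controls and 13 and 41 reads in KO, and its interval was wide (-2.29 to 0.54). Its log2 fold change was -0.87, which became -0.39 without KO 1 and -1.73 without KO 2.

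LIN28A had the highest mean of the 37 over the 4 libraries, both in CPM and per kilobase of exon, although PODXL was above it in CPM in control 2. LIN28A, which binds the precursors of the let-7 microRNAs and blocks their maturation, had 1691 and 1760 CPM in the controls, compared to 2138 and 1824 CPM in KO. Both KO libraries were above both controls, by a log2 fold change of 0.20 with an interval from -0.35 to 0.75. That direction was lost with quantile normalisation, where the log2 fold change was -0.0055. Of the 3 members higher in both KO libraries, LIN28A had the narrowest margin, KO 2 against control 2. With upper-quartile or library-size scaling, quantile normalisation or the mean filter of 1 CPM, 2 members were higher in both. Its paralog LIN28B had 224 and 113 CPM in the controls, compared to 224 and 166 CPM in KO, with control 2 lowest. Per kilobase LIN28A was between 11.3 and 23.3 times as abundant as LIN28B over the 4 libraries.

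L1TD1, an RNA-binding protein derived from a LINE-1 element, was lower in both KO libraries and much lower in 1 of them. It had 1156 and 1169 CPM in the controls, with KO 1 at 1068 CPM and KO 2 at 496 CPM. The log2 fold change was -0.57 ± 0.35 (SE), with an interval from -1.38 to 0.23. Without KO 1 it was -1.22 (edgeR adjusted p = 0.0356), and without KO 2 it was -0.12 (adjusted p = 1). TRIM71 (LIN41), a let-7 target that silences messages of differentiation genes, had 668 and 903 CPM in the controls, compared to 751 and 536 CPM in KO, with KO 1 inside the control range.

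The LIN28 genes and TRIM71 are tied to let-7 by sites in their own messages, and the microRNA and the first such site of each message are shown for that reason. The mature miRNA is from RefSeq with its seed, bases 2 to 8, in capitals. Each site is from GENCODE 29, with the 7 bases that pair with the seed in capitals, and the positions count from the first base of the 3′ UTR.
hsa-let-7a-5p: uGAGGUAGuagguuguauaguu
LIN28A site (position 905): gcacagcctattgaaCTACCTC
LIN28B site (position 44): acccggttgcaaagtCTACCTC
TRIM71 site (position 172): aacattgcttaagtcCTACCTC

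The seed match CTACCTC, read on the message strand, occurred 6 times in the longest annotated 3′ UTR of TRIM71, 4 times in that of LIN28B and 1 time in that of LIN28A. It was in the 3′ UTR of 6 of the 37 members, the others being SALL3, SALL4 and TFCP2L1, and in 9.58% of the 19115 genes with an annotated 3′ UTR. Mature let-7 was not measured in these libraries. Of 11 other genes of the LIN28 and TRIM71 axis, 7 were higher in both KO libraries, beside 15.8% of all genes, and none was lower in both. Some of these margins were narrow, as for AGO2, with 118.0 and 126.4 CPM in the controls, compared to 163.9 and 126.9 CPM in KO. The count is for TMM scaling, and its dependence on scaling is not given here. Over all genes, library-size scaling lowered the share higher in both KO libraries to 10.2%. Neither edgeR's adjusted test nor an unadjusted p under 0.05 picked any of the 11. The most abundant were the message-binding IGF2BP1, with 445 and 427 CPM in the controls, compared to 653 and 478 CPM in KO, and HMGA2, a let-7 target that encodes a chromatin protein, with 248 and 124 CPM in the controls, compared to 321 and 259 CPM in KO.

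The DPPA genes, named for developmental pluripotency, differed widely in level. DPPA4, a SAP-domain protein bound to chromatin, had 648 and 681 CPM in the controls, with KO 1 at 793 CPM and KO 2 at 490 CPM, with a log2 fold change of -0.05 and an interval from -0.71 to 0.61. DPPA2, its neighbour on chromosome 3 and partner protein, had 3.42 and 7.09 CPM in the controls, compared to 1.56 and 2.87 CPM in KO. The level of DPPA4 per kilobase was between 26.6 and 140 times that of DPPA2. DPPA2 was lower in both KO libraries, with a log2 fold change of -1.22 ± 0.58 (SE) and an interval from -2.53 to 0.09. Without control 2 it was -0.61 and without KO 2 it was -1.74, with no call.

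DPPA5, a KH-domain gene of naive cells, was at the limit of counting, with 32 and 39 reads in the controls, 13 in KO 1 and 1 in KO 2. Its log2 fold change was -2.06 ± 0.86 (SE), with an interval from -4.01 to -0.11 and an edgeR adjusted p of 0.997. Without KO 1 it was -4.88 (adjusted p = 0.0254), and without KO 2 it was -1.03 (adjusted p = 1). DPPA3 (STELLA), which guards methylation in the early embryo, had 68 and 16 reads in the controls and 31 and 41 reads in KO, and its 4-fold gap between the controls was the widest among the 37.

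The naive-state genes were at low levels, and 4 of the 6 overlapped between the groups. Summed over TFAP2C, KLF4, KLF5, TFCP2L1, SUSD2 and NLRP7 they stood at 26.7 and 52.8 CPM in the controls, with KO 1 at 15.6 CPM and KO 2 at 29.98 CPM. Control 2 was the highest library for each of the 6, and KO 1 the lowest for all but SUSD2. TFAP2C, an AP-2 factor of naive and trophoblast cells, had 4.88 and 14.6 CPM in the controls, compared to 0.982 and 8.36 CPM in KO, so KO 2 was above control 1. KLF4, a Krüppel-like factor used in reprogramming, had 3.34 and 9.32 CPM in the controls, compared to 1.05 and 5.24 CPM in KO. KLF5, its relative, had 1.91 and 5.49 CPM in the controls, compared to 0.618 and 2.28 CPM in KO, and in all 3 genes KO 2 lay between the controls.

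The fold changes of these genes depended on which library was kept. Without KO 2 the log2 fold change was -3.30 for TFAP2C (edgeR adjusted p = 0.000138), -2.57 for KLF4 (0.0175) and -2.56 for KLF5 (0.0829), where 0.843% of all genes were called as lower. Without KO 1 the values were -0.20, -0.25 and -0.67, and without control 2 they were -0.04, -0.06 and -0.36. TFCP2L1, a grainyhead-like factor of the naive network, had 5.09 and 7.91 CPM in the controls, compared to 3.20 and 6.73 CPM in KO. SUSD2, a surface protein used to sort naive cells, was lower in both KO libraries, with 11.1 and 14.6 CPM in the controls, compared to 9.71 and 7.17 CPM in KO. On the log2 scale the fold change was -0.61, with an interval from -1.50 to 0.28, and it was -0.40 without control 2 and -0.405 without KO 2. NLRP7, a maternal-effect gene of the NLR family, had 13 and 27 reads in the controls, 0 in KO 1 and 7 in KO 2. The count of 0 allows a level of up to 0.109 CPM, taken as 3 reads and covering counting error only.

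Of 20 other markers of the naive state 10 had enough reads to be tested. None passed edgeR's adjusted test, 5 of the 10 were lower in both KO libraries and none was higher in both, beside 16.3% and 15.8% of all genes. The list shares DPPA5 with the members. It shares FGF4 and GDF3, both lower in both KO libraries, with the core network partners described below. Besides DPPA5 the one with an unadjusted p under 0.05 in edgeR was FGF4, a growth factor gene driven by OCT4 and SOX2, with 2.33 and 1.63 CPM in the controls, compared to 0.982 and 0.234 CPM in KO. FGF4 had 8 reads in KO 2, under the minimum count of 10 that sets the filter. The filter was met in both controls but not in both KO libraries, as for DPPA5. It thus favours a lower level in KO for these genes. KLF17, a defining naive factor, had 0 reads in 3 of the 4 libraries and 0.109 CPM in KO 1. NLRP2, a relative of NLRP7, had 56.4 and 45.3 CPM in the controls, with KO 2 at 65.5 CPM and KO 1 at 0.036 CPM, and is named here after its values were seen.

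The 5 telomere, cell cycle, transcription and surface genes were each lowest in KO 2. TERF1, a telomere-binding protein abundant in stem cells, had 872 and 499 CPM in the controls, compared to 666 and 257 CPM in KO. POLR3G, a subunit of RNA polymerase III that marks stem cells, had 245 and 131 CPM in the controls, compared to 296 and 96.1 CPM in KO. In both genes replicate 1 was the higher library within each group. Without KO 1 the log2 fold change of TERF1 was -1.40 (edgeR adjusted p = 0.0111), without KO 2 it was -0.04, and without control 1 it was -0.10. For POLR3G it was 0.06 with all libraries, with an interval from -1.18 to 1.30.

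TERT, the catalytic subunit of telomerase, was lower in both KO libraries by a small margin, with 19.7 and 19.5 CPM in the controls, compared to 18.3 and 16.0 CPM in KO. USP44, a deubiquitinase that acts on histone H2B and on the mitotic checkpoint, had 288 and 254 CPM in the controls, with KO 1 at 362 CPM and KO 2 at 210 CPM. PODXL, which carries the TRA-1 surface epitopes of stem cells, had 1649 and 2266 CPM in the controls, compared to 1794 and 1398 CPM in KO. Of 10 tested genes of telomere maintenance none had an unadjusted p under 0.05 in edgeR, 3 were higher in both KO libraries and none was lower in both, beside 15.8% and 16.3% of all genes. DKC1, the pseudouridine synthase of the telomerase complex, was the most abundant, with 242 and 188 CPM in the controls, compared to 207 and 144 CPM in KO.

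The KO libraries differed from each other for many of the 37 regulators, more often with KO 2 the lower. KO 2 was the lowest of the 4 libraries for 22 members (59.5%), beside 32.3% of all genes tested, and KO 2 was below KO 1 for 26 members (70.3%), beside 49.9%, while for the other 11 KO 2 was the higher. The median difference, KO 2 minus KO 1, was -0.429 on the log2 scale over the members and 0.001 over all genes. The difference between the controls had a median of 0.016 over the members and 0.013 over all genes. Of the 22 genes lowest in KO 2, 20 had a mean of at least 10 CPM. KO 2 was at least 2-fold below KO 1 for NANOG, SALL3, PRDM14, L1TD1, DPPA5, TERF1 and POLR3G, 18.9% of the members beside 14.0% of all genes.

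A smaller set had another order. For 8 members (21.6%, beside 9.55% of all genes) control 2 was the highest library and KO 1 the lowest. These were SALL1, UTF1, DPPA2, TFAP2C, KLF4, KLF5, TFCP2L1 and NLRP7, and 7 of the 8 had a mean under 10 CPM. Both sets were read from the levels after they were seen, and with 1 library on each side these differences have no test. Control 2 was at least 2-fold above control 1 for 5 members, DPPA2, TFAP2C, KLF4, KLF5 and NLRP7 (13.5%, beside 9.33% of all genes).

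**Figure D3:**
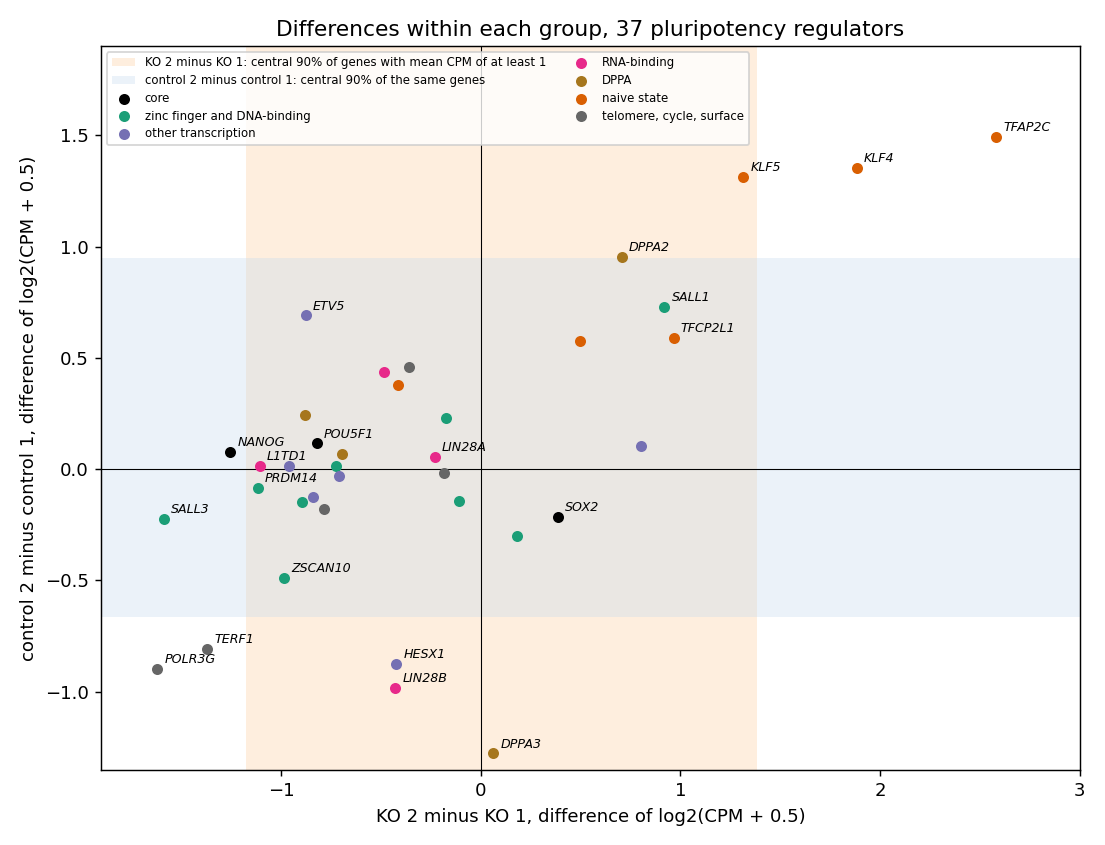
Difference between the libraries of each group for the 37 regulators, KO 2 minus KO 1 on the x axis and control 2 minus control 1 on the y axis, both in log2(CPM + 0.5); each point is a gene coloured by role, and the bands hold the central 90% of all genes averaging 1 CPM or more. TFAP2C and KLF4 lie at the upper right, outside both bands, and POLR3G and TERF1 at the lower left, while NANOG and SALL3 lie left of the KO band.

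Markers of other cell types also differed between libraries of a group. The 10 fibroblast markers summed to 260 and 526 CPM in the controls and to 152 CPM in KO 1, against 795 in KO 2, mostly from the collagen genes COL1A1 and COL1A2. Of the other markers on that list, DCN, LUM, FAP and PRRX1 were at or under 0.182 CPM in each library, and TWIST1 at or under 0.394. PDGFRB was present in all libraries, with 12.9 and 24.7 CPM in the controls, compared to 9.75 and 15.6 CPM in KO. COL3A1 and ACTA2 were highest in KO 2, at 3.66 and 2.90 CPM. The 11 trophoblast and amnion markers summed to 23.2 and 47.1 CPM in the controls and to 20.6 and 27.5 CPM in the KO libraries, highest in control 2 and lowest in KO 1 as for TFAP2C and KLF4. KRT7 had the highest mean of these markers and went against that order, being higher in both KO libraries. It had 13.7 and 13.8 CPM in the controls, compared to 17.8 and 16.6 CPM in KO. CGA had 0 reads in all 4 libraries. The 10 neuroectoderm markers summed to 12.1 and 19.5 CPM in the controls, with KO 1 at 7.89 CPM and KO 2 at 47.0 CPM, of which LHX5 alone gave 35.2. Primitive streak and mesoderm markers summed to 10.4 and 17.4 CPM in the controls, compared to 6.73 and 7.34 CPM in KO, and endoderm markers to between 5.24 and 9.37 CPM. Their part in the levels of the pluripotency genes was not tested, and in bulk RNA fewer cells of a type and less RNA per cell cannot be told apart.

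By edgeR's unadjusted p, 1 of 6 tested neuroectoderm markers, 2 of 6 mesoderm markers, 2 of 6 trophoblast markers, and none of the endoderm and fibroblast markers were under 0.05, each lower in KO and none called after adjustment, beside 3.0% of all genes lower at such a p. GATA2, an early trophoblast and blood factor, had 0.504 and 8.58 CPM in the controls, compared to 0.109 and 0.146 CPM in KO. CDX2, a caudal homeobox factor, was counted 16 and 11 times in control and had 0 reads in KO. Against 3 reads over the KO group as the floor, the control mean was 7.54-fold above that floor. This covers counting error in KO only, and not the spread of the controls. Both GATA2 and CDX2 passed the filter on read counts only through the controls. Their reads in the controls are thus why they were tested, and their p-values give no separate support for a fall. MIXL1, a homeobox gene of the primitive streak, had 1.75 and 1.91 CPM in the controls, compared to 0.946 and 0.439 CPM in KO. PDGFRA, a receptor of mesoderm and primitive endoderm, had 3.50 and 4.59 CPM in the controls, compared to 2.36 and 0.497 CPM in KO, and DCX, a microtubule protein of young neurons, had 6.49 and 9.71 against 4.18 and 3.42. DCX was not typical of its list: of the 6 tested neuroectoderm markers, 4 had a log2 fold change above 0 and 2 below. Of the 6 tested trophoblast and amnion markers, 2 had one above 0 and 4 below.

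Of 18 partners of the core network, all tested, both KO libraries were lower for 7 and higher for 1, beside 16.3% and 15.8% of all genes, and 10 overlapped between the groups. FGF4 and GDF3 are among those 7 and were also counted with the naive markers above. The list of partners had a median log2 fold change of -0.255, and none was called over all genes. At an unadjusted p under 0.05 edgeR placed 4, all lower, beside 3.0% of all genes in that direction. FGF2, the growth factor on which primed cells depend, had 174 and 222 CPM in the controls, compared to 126 and 97.8 CPM in KO, a log2 fold change of -0.83. MYC had 66.4 and 147 CPM in the controls, compared to 64.0 and 37.3 CPM in KO. LEFTY1, an inhibitor of Nodal, had 2.65 and 3.997 CPM in the controls, compared to 0.946 and 1.58 CPM in KO, and the remaining one was FGF4. As given above, FGF4 met the filter on read counts in both controls but not in KO 2. FOXH1, the DNA-binding partner of SMAD proteins, was the gene higher in both KO libraries, with 50.2 and 41.7 CPM in the controls, compared to 52.0 and 90.1 CPM in KO. Of 14 other markers of the primed state, 1 of them the member SALL3, both KO libraries were lower for 2 and higher for 2 (16.3% and 15.8% of all genes), and none had an unadjusted p under 0.05. CD24, a surface marker, was the most abundant, with 2117 and 1564 CPM in the controls, compared to 2159 and 1384 CPM in KO, and DNMT3B, the de novo DNA methyltransferase, had 1743 and 1302 CPM in the controls, with KO 1 at 1550 CPM and KO 2 at 662 CPM.

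Levels between genes are compared per kilobase of merged exon. LIN28A had a mean of 462 CPM per kilobase over the 4 libraries, PODXL 258.5 and L1TD1 252.5. SOX2 followed with 142.5, DPPA4 with 131, SALL2 with 111 and POU5F1 with 105. Ranges over the libraries overlapped for PODXL and L1TD1, for L1TD1 and SOX2, and among SOX2, DPPA4, SALL2 and POU5F1, so their order is not fixed. NANOG, at 8.87, was between 8.58 and 22.1 times below POU5F1, with the wider gaps in KO. The size of this gap depends on the merged exon lengths, 5393 bases for NANOG and 2896 for POU5F1. Reads that NANOG shares with its pseudogenes may also be missing from its count. At the lower end stood TFCP2L1 with 0.612, SALL3 with 0.208 and NLRP7 with 0.0836. In all, 20 members had a mean of at least 100 CPM and 2 had a mean under 1 CPM. Exons of 9 members overlap those of another gene, by at most 8.77% of the member's exon length (SALL2), and POU5F1 shares 8.56% with TCF19 on the opposite strand, so a small part of their reads may be set aside or shared.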

How the data were processed

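RNA was extracted with Trizol and columns and sequenced after a stranded mRNA library preparation, per the labels' protocols. FastQC 0.11.7, then cutadapt 1.8.1, with STAR 2.6.0a plus HTSeq 0.11.0 and the build GRCh38, are named per the submitters' processing notes. The authors deposited raw read counts, whole numbers for each gene and library. The labels' protocols also name a quantile normalisation, which was run as an alternative. Neither annotation release nor strand setting was stated, so overlapping or antisense genes may share reads. Rows that name no gene (14.4% to 20.3% of counted alignments) were left out. Of 60483 identifiers, 56753 (93.8%) matched GENCODE 29 without version suffix, which gave symbols, positions and exon lengths.

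Genes were filtered with edgeR's filterByExpr (minimum count 10, 19027 kept) and scaled with TMM factors. The KO libraries were tested against the controls in edgeR 4.0.16 (R 4.3.3, quasi-likelihood F test of the edgeR 4 fit, robust, two-sided, Benjamini-Hochberg adjustment over all genes, threshold 0.05). The common dispersion was 0.132. Standard errors are the log2 fold change over the square root of F, and intervals use the model's degrees of freedom. An exact permutation test with 2 libraries a group cannot go below 0.33, so none was run. Log2 differences between libraries use CPM + 0.5. The test was checked on simulated counts. Alternatives used DESeq2 1.42.0, limma 3.58.1, other scaling and filters, a replicate block and each library left out. The members, lists and tests were chosen with earlier results of these data known. Genes were named by role from the member list, and from each other list those with an unadjusted p under 0.05 (at most 3) or else the most abundant ones. Named outside that rule were NLRP2, KLF17, LHX5, CGA, KRT7, FOXH1, LEFTY1, AGO2, GDF3 and the fibroblast markers other than COL1A1 and COL1A2. Promoter and miRNA sequences are from RefSeq (GRCh38.p14), and 3′ UTRs are from the GENCODE 29 transcript with the longest one.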

Additional observations from a re-analysis of the deposited data

How the results depend on the processing

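With 2 libraries a group, the spread between the KO libraries limits what can be called. No member was called with RLE, upper-quartile or library-size scaling, edgeR's legacy fit, DESeq2, limma-voom, quantile normalisation, no filter or a mean of at least 1 CPM (35 members tested). Members at an unadjusted p under 0.05 numbered 1 with the legacy fit, 5 with limma-voom and 6 without a filter. The shares of all genes were 3.42%, 3.64% and 3.46%. With a replicate block 10 members were at such a p, none called, beside 7.93% of all genes. The labels do not say that replicate numbers pair libraries; deviations of same-numbered libraries correlated at 0.366 over genes, with only 2 pairs. Over all genes, the median shifted to -0.0969 (log2) under library-size scaling, from 0.0289, and the shares lower and higher in both KO libraries went from 16.3% and 15.8% to 21.3% and 10.2% (upper-quartile 20.0% and 11.4%). Leaving out each library in turn gave 0 to 5 members called, 0 to 8 at an unadjusted p under 0.05, 12 to 25 lower and 3 to 16 higher in all KO libraries kept. Fewer libraries make such an order easier to meet.

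Of log2 fold changes near 0, these changed sign. Upper-quartile scaling gave ZSCAN10 -0.0077, VRTN -0.0839, FOXO1 -0.0801, DPPA3 -0.038, USP44 -0.0021 and POLR3G -0.0129. Library-size scaling gave POU5F1 -0.0249, ZSCAN10 -0.0309, VRTN -0.1155, FOXO1 -0.1088, DPPA3 -0.0771, USP44 -0.031 and POLR3G -0.0241. Limma-voom gave VRTN -0.049, FOXO1 -0.0847 and POLR3G -0.0989. Quantile normalisation gave POU5F1 -0.0508, ZFP42 -0.0378, ZSCAN10 -0.1062, VRTN -0.1529, FOXO1 -0.1829, ETV4 -0.0324, LIN28A -0.0055, USP44 -0.0799 and POLR3G -0.2042. No filter gave VRTN -0.0013, and a mean of at least 1 CPM gave VRTN -0.0357, FOXO1 -0.0311 and DPPA3 -0.0036. The replicate block gave VRTN -0.0447, FOXO1 -0.0727 and POLR3G -0.0889. The cause was not tested.

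With each library left out, the ranges were -0.0542 to 0.3412 for SOX2, -0.3634 to 0.4473 for POU5F1, -0.6771 to 0.2681 for SALL1, -2.2307 to 0.2448 for SALL3, -0.1537 to 0.0657 for SALL4, -0.3629 to 0.5259 for ZFP42 and -0.4951 to 0.4812 for ZSCAN10. They were -0.3961 to 0.3209 for VRTN, -0.7661 to 0.0685 for MYCN, -0.5455 to 0.4117 for FOXO1, -0.2331 to 0.4667 for ETV4, -0.699 to 0.1884 for ETV5, -0.1997 to 0.7944 for LIN28B and -0.6281 to 1.373 for DPPA3. They were -0.4278 to 0.2561 for DPPA4, -1.017 to 0.0656 for TFCP2L1, -0.3546 to 0.4213 for USP44 and -0.9618 to 0.6547 for POLR3G.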
